A study of Arabidopsis thaliana with 9 samples.

Results

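The genes described here had their highest transcript level in the first-actuated roots of a jet flight, while the last-actuated and the ground roots lay close to each other. They were chosen by their measured values among probe sets, the groups of array probes that are summarized as a single value. A probe set was kept when its lowest first-actuated value exceeded the highest of the other 6 arrays. Its first-actuated mean also had to exceed each of the other group means by at least 0.6 on the log2 scale and to reach 5, and the last-actuated and ground means had to lie less than 0.4 apart. Of 16722 probe sets paired with exactly 1 gene, 81 met these conditions, 2 were left out by name (GH3.17 and AT4G27657), and 79 remained, each from a different locus. Some other names, such as those starting with UGT, BGLU, WRKY or XTH and the chloroplast-encoded loci, were barred by the rule as well, but only those 2 met the conditions.

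Whole roots of 10-day-old Arabidopsis thaliana seedlings were measured, with 3 arrays for each of 3 groups. First-actuated roots came from a tube whose fixative was released in the air, by the labels' protocol during low-altitude acceleration; last-actuated roots came from another in-flight tube, released once a steep ascent (4 g, roughly 30 s) and a parabola with some 10 s of microgravity were over; ground roots came from a tube released on the ground during the flight. The series' design text instead places in-flight release after microgravity and about 1.5 min into renewed level flight and does not tell the tubes apart, so the moment at which the first-actuated roots were fixed is uncertain. Seedlings of every group, ground included, were of the Wassilewskija (WS) cultivar, grown in continuous light, and carried pCaMV35S:14-3-3κ:GFP, a transgene that drives the 14-3-3 kappa protein fused to GFP from a viral promoter active in most plant cells, so no group shows roots without it. All were fixed in RNAlater. The 3 arrays of a group were root pools of a single tube, so tube and condition cannot be told apart, and errors below cover the spread between pools only.

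Plant cells answer touch, wounding, temperature shifts and other sudden stimuli by changing transcripts within minutes, and some such transcripts are back at their starting level soon after. A transcript that is high in an early sample and near the control in a later one has the shape of such a passing response. The tubes held different seedlings, however, and no seedling was followed over time, so the pattern here is a difference between 3 tubes. Bulk root RNA was measured, in which more cells of a type and more RNA per cell cannot be told apart.

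The arrays of the series were closely matched, with medians from 3.27 to 3.35 and highest values from 13.92 to 14.00 on the log2 scale. RMA, which made these values, usually equalizes array distributions, so this match says little about the samples. Only 1 of 25 root marker genes had a probe set paired with it alone, EXPA7, an expansin gene of root hairs, at 4.72 ± 0.17 in first-actuated, 5.30 ± 0.25 in last-actuated and 5.31 ± 0.22 in ground roots (SD, n = 3 each). It was called in no contrast by the limma fit used below. Its limma adjusted p was 0.0584 for first-actuated against ground and 0.0527 against last-actuated roots, both with an unadjusted p under 0.05. With 1 marker measured, the root label could hardly be checked from markers. Of 33 marker genes of green shoot tissue 7 were measured, and their summed linear level was 554 to 733 in first-actuated, 443 to 457 in last-actuated and 451 to 508 in ground roots. Without LHB1B2, a light-harvesting protein gene barred from the chosen genes by name, the sums were 382 to 412 in first-actuated, 373 to 405 in last-actuated and 333 to 370 in ground roots. First-actuated and last-actuated sums then overlapped, and every sum of either in-flight group stayed above every ground sum. RCA, the brightest of the remaining genes, had means of 8.32 in first-actuated, 8.34 in last-actuated and 8.08 in ground roots. PSAE-1 and LHCB4.1 instead had first-actuated minus ground differences of -0.35 and -0.22 on the log2 scale, neither called by limma. Their last-actuated minus ground differences were larger in size, at -0.66 and -0.47, of which that of LHCB4.1 was called (limma adjusted p = 0.0296). LHB1B2 was called higher in first-actuated than in last-actuated roots (1.96 ± 0.28, limma adjusted p = 0.00224). The stomatal lineage genes SPCH, MUTE and FMA lay at means of 1.93 to 2.46, below every array median. The part of shoot tissue in the results below was not tested.

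The 79 genes spanned a wide range of levels. Their first-actuated means ran from 5.11 to 10.96, with 26 of them under 6 and 17 at 8 or more. In 30 genes the last-actuated and ground means were both under 5. Per array, the median over the 79 genes was 6.58, 6.47 and 6.50 in first-actuated roots, against 5.47, 5.33 and 5.40 in last-actuated and 5.33, 5.37 and 5.55 in ground roots. The rule itself required every first-actuated array to lie above the others. Among them, replicate 1 was the highest of the 3 for 33 genes, replicate 2 for 26 and replicate 3 for 20.

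The lead of a gene is used below for the smaller of its differences, first-actuated minus ground and first-actuated minus last-actuated, on the log2 scale. Leads ran from 0.60 to 2.21 with a median of 0.79, which is a ratio of 1.73 on the linear scale. A lead of at least 1, a doubling, was seen in 26 genes, of at least 1.5 in 5 and of at least 2 in AT5G03890 alone. The gap between the lowest first-actuated array and the highest of the others was at least 0.5 for 36 genes and under 0.1 for 3. All first-actuated arrays lay above the other 6 in 4.82% of probe sets with 1 gene. These values chose the genes and are given as a description, without a test.

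**Figure D1:**
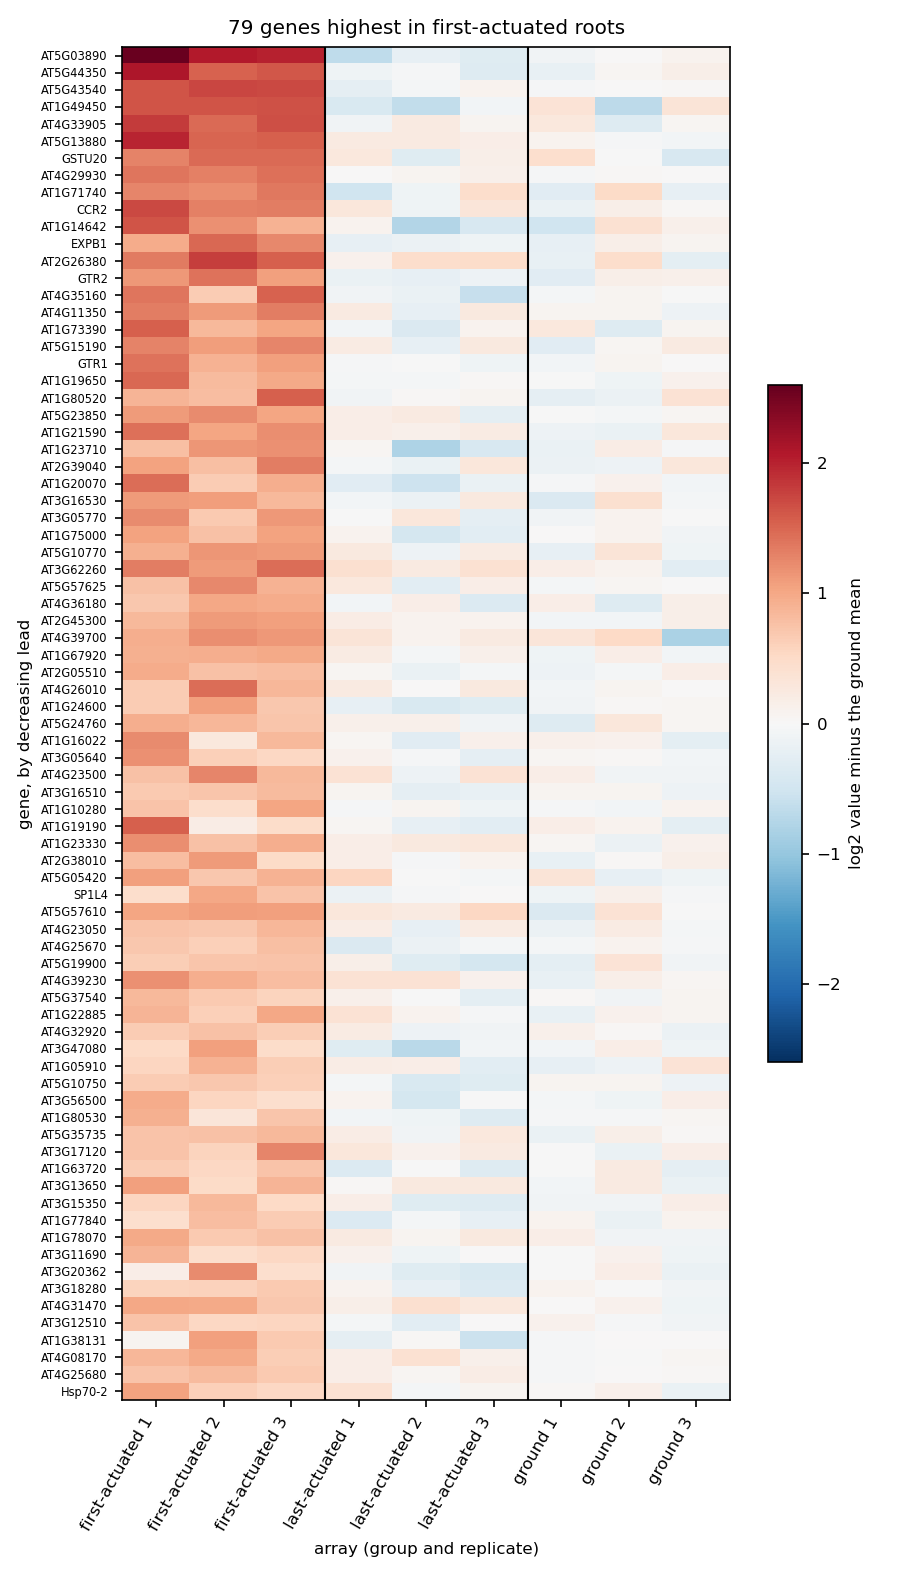
Heat map of the 79 genes (rows, by decreasing lead) on the 9 arrays (columns), coloured by the log2 value minus the mean of the ground arrays. Every first-actuated cell lies above 0, but some only slightly. For AT1G38131 the lowest first-actuated array was 6.50, against a ground mean of 6.42. Last-actuated minus ground means ran from -0.39 to 0.36, while single last-actuated and ground cells lie further from 0 in some rows. For AT4G39700 the lowest ground array was 3.20, against a ground mean of 4.02. Leads run from 2.21 at the top to 0.60 at the bottom.

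In limma's fit over all 17481 probe sets paired with at least 1 gene, 71 of the 79 were called higher in first-actuated than in ground roots, where 2.25% of all probe sets were called higher. Against last-actuated roots 75 were called higher, beside 3.15% of all probe sets. Since the rule used these contrasts, nothing is read from those counts. Last-actuated and ground roots differed in 0 of the 79 by limma, with 5 at an unadjusted p under 0.05, beside 1.81% of all probe sets called in either direction, and here too the rule had bounded the difference.

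Within that bound the last-actuated roots did not lean one way. Their mean was above that of the ground roots for 40 genes and below it for 39, with a median difference of 0.0016, and the difference was under 0.2 in size for 53. It was at least 0.3 in size for 10 genes. AT5G03890 had the most negative, at -0.39 ± 0.16 (SE), and AT3G62260 the most positive, at 0.36 ± 0.14. The last-actuated arrays lay wholly above the ground arrays for 6 genes and wholly below them for 6, where 7.68% and 8.91% of all probe sets did so.

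**Figure D2:**
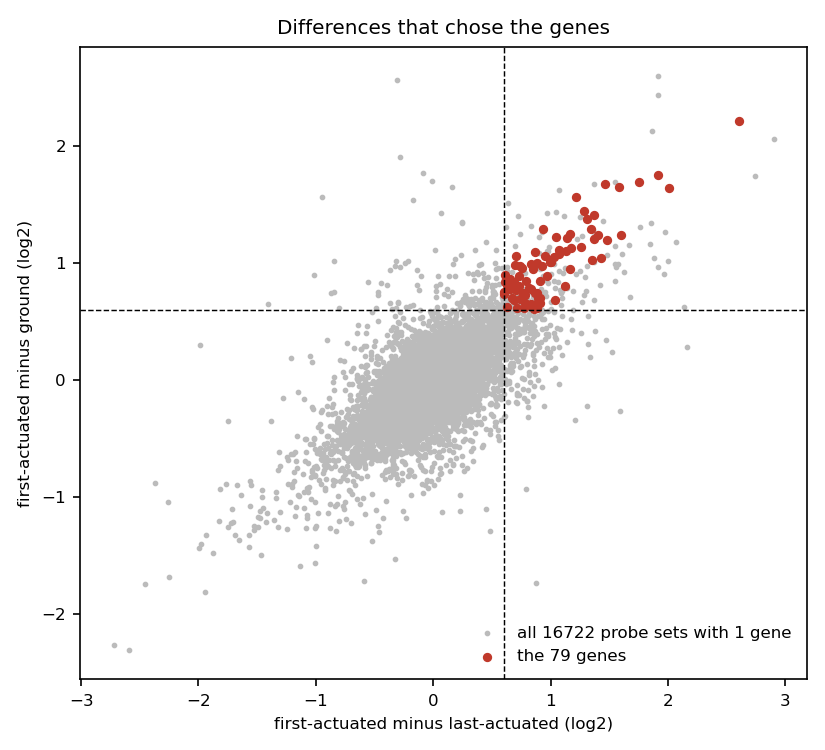
Each point is a probe set with 1 gene, plotted by first-actuated minus last-actuated (x) and first-actuated minus ground (y), both in log2, with dashed lines at 0.6. The 79 genes (red) fill the upper right corner near the diagonal, up to 2.60 and 2.21, and grey points there miss another condition or were barred by name.

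Of the 79 genes 7 have a symbol and 72 are known by a locus identifier. The family named for a locus is background knowledge, since the gene tables used here list these loci without a description. A role is stated for 50 genes and none for 29.

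The genes with the largest leads include regulators and several loci without a stated role. AT5G03890 had values of 7.13, 6.63 and 6.56 on the first-actuated arrays, against 3.90, 4.36 and 4.25 on the last-actuated and 4.47, 4.56 and 4.65 on the ground arrays. Its lead of 2.21 is a ratio of 4.63. AT5G44350 had 5.67, 5.09 and 5.18 in first-actuated roots, 3.46, 3.53 and 3.22 in last-actuated and 3.36, 3.61 and 3.72 in ground roots. The 6 lower arrays of AT5G44350 were near the array medians, so its size of change is uncertain, and in both loci the first-actuated replicate 1 was the highest.

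AT5G43540 encodes a zinc finger protein of the C2H2 class, a class that includes many stress-responsive regulators. It had 7.95, 8.06 and 8.03 in first-actuated roots, 6.10, 6.26 and 6.42 in last-actuated and 6.29, 6.33 and 6.34 in ground roots. The 3 first-actuated values spread by less than the last-actuated ones and stood 1.53 above the highest other array. AT4G29930, a gene of the basic helix-loop-helix transcription factors, had 7.46, 7.39 and 7.51 in first-actuated, 6.08, 6.14 and 6.21 in last-actuated and 6.04, 6.11 and 6.07 in ground roots. First-actuated minus ground was 1.38 ± 0.08 and first-actuated minus last-actuated 1.31 ± 0.08 (SE) for this gene, among the smallest errors of the 79, which ran from 0.08 to 0.29.

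AT1G49450 and AT1G78070 encode proteins with WD40 repeats, a fold that holds protein complexes together. AT1G49450 had 6.88, 6.88 and 6.90 in first-actuated roots, 4.84, 4.60 and 5.18 in last-actuated and 5.59, 4.55 and 5.58 in ground roots. Its first-actuated arrays were nearly equal while ground replicate 2 was about 1 below the other ground arrays, so the ground mean carried most of its error (SD 0.60, n = 3). AT1G78070 was brighter and led by less, with means of 9.13 ± 0.16, 8.50 ± 0.10 and 8.31 ± 0.15 in first-actuated, last-actuated and ground roots (SD, n = 3 each).

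AT5G13880, without a stated role, had 8.48, 8.03 and 8.06 in first-actuated, 6.75, 6.75 and 6.69 in last-actuated and 6.60, 6.49 and 6.45 in ground roots. For AT4G33905, whose product belongs to the Mpv17 and PMP22 family of organelle membrane proteins, the values were 5.36, 5.01 and 5.22 in first-actuated, 3.46, 3.78 and 3.63 in last-actuated and 3.81, 3.22 and 3.61 in ground roots. Both were far apart from the other groups relative to their spread, with gaps of 1.28 and 1.19. The lower arrays of AT4G33905 were near the array medians, however, so the size of its change is uncertain. The remaining loci of the leading 12 without a stated role had larger spreads. AT1G71740 had 6.19, 6.14 and 6.30 in first-actuated, 4.41, 4.81 and 5.38 in last-actuated and 4.64, 5.42 and 4.72 in ground roots. AT1G14642 had 6.58, 6.14 and 5.85 in first-actuated, 5.04, 4.18 and 4.54 in last-actuated and 4.43, 5.33 and 5.08 in ground roots. The last-actuated and ground arrays of both interleaved over a range of about 1, wider than that of their first-actuated arrays.

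**Figure D3:**
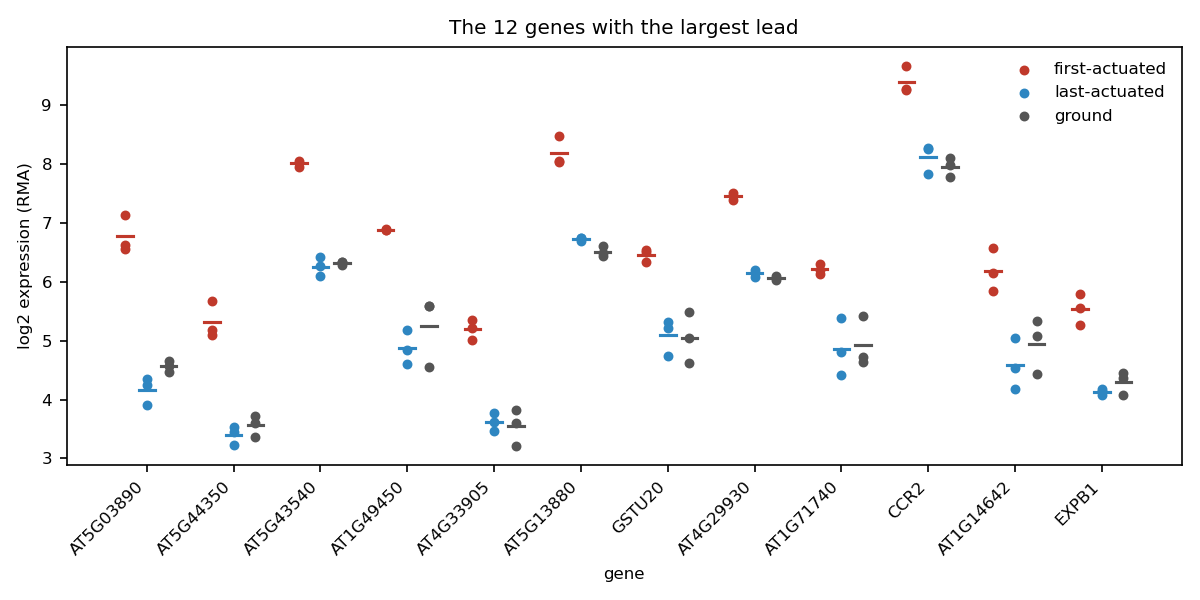
Log2 expression of the 12 genes with the largest lead, one point per array and a bar at each group mean, for first-actuated (red), last-actuated (blue) and ground roots (grey). In each gene the 3 red points lie above all others, and blue and grey points overlap or lie less than 0.4 apart in mean.

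Among enzyme genes, GSTU20 and CCR2 led. GSTU20 encodes a tau class glutathione S-transferase, an enzyme family that joins glutathione to reactive or foreign compounds. Its values were 6.33, 6.51 and 6.53 in first-actuated roots, 5.32, 4.74 and 5.21 in last-actuated and 5.48, 5.04 and 4.63 in ground roots. CCR2 encodes a cinnamoyl-CoA reductase, which commits phenylpropanoid units to lignin-type compounds and in Arabidopsis is linked to defence. It had 9.67, 9.26 and 9.28 in first-actuated, 8.25, 7.84 and 8.28 in last-actuated and 7.78, 8.11 and 7.98 in ground roots, a lead of 1.28 (2.43-fold). HCT, another lignin pathway gene, missed the chosen set by 0.0037 on first-actuated minus last-actuated, with means of 9.49 ± 0.05, 8.89 ± 0.08 and 8.81 ± 0.09 in first-actuated, last-actuated and ground roots (SD, n = 3 each). It is named here after its values were seen.

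Other metabolic genes had smaller leads. AT4G35160, of the O-methyltransferase family, had means of 6.01 ± 0.47 in first-actuated, 4.52 ± 0.28 in last-actuated and 4.81 ± 0.06 in ground roots (SD, n = 3 each). AT1G75000, of a family of fatty acid elongases, led by 0.95 and AT2G45300, which encodes EPSP synthase of the shikimate pathway that supplies aromatic amino acids, by 0.88. AT5G24760, an alcohol dehydrogenase-like gene, AT1G19190, a carboxylesterase gene, AT2G38010, a ceramidase gene, and AT4G39230, an isoflavone reductase-like gene, led by 0.79, 0.74, 0.73 and 0.70. AT1G10280 and AT3G15350, both of a family of core-2/I-branching glycosyltransferases, led by 0.74 and 0.64. AT1G19190 rested most on a single array, with 6.22, 4.84 and 5.14 in first-actuated roots, 4.72, 4.44 and 4.39 in last-actuated and 4.82, 4.75 and 4.40 in ground roots, a gap of 0.02, and limma called it in neither contrast.

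The transport genes include a known pair. GTR1 and GTR2 encode glucosinolate transporters of the NRT1/PTR family, plasma membrane proteins that load these sulfur-rich defence compounds into the phloem and retain them in roots. GTR1 had 7.43, 6.93 and 7.10 in first-actuated roots, 5.99, 6.01 and 5.92 in last-actuated and 5.95, 6.10 and 6.03 in ground roots. GTR2 was brighter, with 8.98, 9.26 and 8.92 in first-actuated, 7.67, 7.64 and 7.73 in last-actuated and 7.57, 8.002 and 7.99 in ground roots. Their leads, 1.12 for GTR1 and 1.201 for GTR2, lay within an SE of each other (0.12 and 0.13), and they were singled out as a pair after their values were seen.

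Relatives were searched by symbol and synonym, which finds only part of the NRT1/PTR family, and none of the 12 other probe sets found met the conditions. Over these 12, first-actuated minus ground had a median of -0.04 and ran from -0.23 to 0.73, and first-actuated minus last-actuated had a median of 0.08 and ran from -0.28 to 0.51. The highest of them, AT1G59740, had means of 10.64 ± 0.26 in first-actuated, 10.13 ± 0.18 in last-actuated and 9.91 ± 0.03 in ground roots (SD, n = 3 each). Medians over all probe sets with 1 gene were 0.0058 and 0.0017 in the same contrasts. The remaining transport genes were AT1G19650, of the Sec14-like lipid transfer proteins (lead 1.099), AT4G39700, of the heavy metal-associated domain proteins (0.87), AT1G80530, of the major facilitators (0.65), and AT3G18280, a lipid transfer protein gene (0.62). AT4G39700 was called in neither contrast, as its ground arrays lay at 4.33, 4.53 and 3.20, with replicate 3 far below the others.

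Of the 79 genes 13 encode proteins of the wall or the secretory route. EXPB1, a beta-expansin, a protein that loosens cell walls, had 5.26, 5.80 and 5.56 in first-actuated, 4.08, 4.15 and 4.18 in last-actuated and 4.07, 4.45 and 4.37 in ground roots. Over the other 18 expansin probe sets found by symbol first-actuated minus ground had a median of 0.05, with 11 above 0 and 7 below, and first-actuated minus last-actuated a median of 0.01, with 9 above and 9 below. EXPB3 held the largest first-actuated minus last-actuated difference of those 18, at 1.47, but its first-actuated mean of 6.52 ± 0.69 was close to its ground mean of 6.18 ± 0.39 (SD, n = 3 each). AT2G26380, a leucine-rich repeat protein gene, had 8.45, 8.89 and 8.65 in first-actuated, 7.20, 7.55 and 7.58 in last-actuated and 6.90, 7.55 and 6.83 in ground roots.

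Class III peroxidases are secreted enzymes that make or use hydrogen peroxide in the wall, and 2 of their genes were among the 79. AT2G39040 had means of 5.21 ± 0.27 in first-actuated, 4.18 ± 0.24 in last-actuated and 4.16 ± 0.25 in ground roots (SD, n = 3 each). AT4G26010 had 7.14 ± 0.40 in first-actuated, 6.31 ± 0.13 in last-actuated and 6.15 ± 0.07 in ground roots. Of 10 other peroxidase probe sets found by symbol or synonym, ascorbate peroxidases of the chloroplast among them, limma called 1 higher and 1 lower in first-actuated than in ground roots, where 4.89% of all probe sets were called, with 3 at an unadjusted p under 0.05. Against last-actuated roots 0 were called higher and 1 lower by limma, where 6.73% were called, again with 3 at an unadjusted p under 0.05. The median differences were 0.10 against ground and 0.05 against last-actuated roots, with 6 above 0 and 4 below in each.

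Prx37 fell against both groups, with means of 8.41 ± 0.02 in first-actuated, 9.37 ± 0.19 in last-actuated and 9.08 ± 0.12 in ground roots (SD, n = 3 each). Its difference from ground was -0.67 ± 0.11 (limma adjusted p = 0.00679) and from last-actuated roots -0.96 ± 0.11 (adjusted p = 0.000798), the opposite direction to AT2G39040 and AT4G26010. PRXCA, the call higher against ground (0.64 ± 0.12, limma adjusted p = 0.0157), had a first-actuated mean of 2.60, below the array medians. That call was lost without ground replicate 2 (adjusted p = 0.0564) or 3 (0.0527) or first-actuated replicate 2 (0.0601).

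Among the other secreted protein genes, AT5G57625 and AT4G31470, of the CAP family that holds pathogenesis-related protein 1, led by 0.92 and 0.62. The lectin gene AT3G16530 led by 1.00, the aspartyl protease genes AT5G10770 and AT5G37540 by 0.95 and 0.70, and the glycine-rich protein genes AT2G05510 and AT4G32920 by 0.85 and 0.68. AT4G23500, a pectin lyase-like gene, led by 0.75 and AT3G13650, of the dirigent proteins that steer phenolic coupling, by 0.64. The leads of the 13 ran from 0.62 to 1.24, with a median of 0.85.

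The signalling genes numbered 8, with leads from 0.61 to 1.05. Protein kinase genes were AT1G21590 (lead 1.05), AT4G36180, a leucine-rich repeat receptor kinase (0.89), AT5G57610 (0.71) and AT4G23050, which also has a PAS sensor domain (0.71). AT3G62260 and AT3G05640 encode protein phosphatases 2C, the class that removes phosphate from serine and threonine and holds the main negative regulators of abscisic acid signalling, though not every member acts there. AT3G62260 had 8.02, 7.80 and 8.15 in first-actuated roots, 7.12, 6.94 and 7.11 in last-actuated and 6.88, 6.80 and 6.42 in ground roots, a lead of 0.94. AT3G05640 had 6.10, 5.52 and 5.44 in first-actuated roots, 5.02, 4.88 and 4.67 in last-actuated and 4.95, 4.94 and 4.84 in ground roots. In AT3G62260 the last-actuated arrays lay above all ground arrays, and in AT3G05640 these groups overlapped. AT4G08170, of the inositol phosphate kinases, and AT3G16510, a C2 domain gene, led by 0.61 and 0.75.

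The other genes with a stated role are mixed. SP1L4, a SPIRAL1-like gene of a family of microtubule-associated proteins that keep root cells growing straight, had 4.95, 5.49 and 5.23 in first-actuated roots, 4.35, 4.46 and 4.51 in last-actuated and 4.39, 4.63 and 4.46 in ground roots. Its 4 measured relatives, SP1L1, SP1L2, SP1L3 and SP1L5, had first-actuated minus ground differences of -0.11 to 0.04. Hsp70-2, a chaperone gene, had 5.58, 5.16 and 5.07 in first-actuated, 4.92, 4.48 and 4.59 in last-actuated and 4.57, 4.65 and 4.37 in ground roots, the smallest lead of the 79. Limma did not call Hsp70-2 against last-actuated roots. AT5G05420, of the FKBP-type prolyl isomerases, led by 0.73, AT1G77840, a translation initiation factor 5 gene, by 0.63, AT1G05910, an AAA-type ATPase gene with a bromodomain, by 0.67, and AT4G25680, of a putative peptidase family, by 0.61. AT5G35735, which encodes a cytochrome b561 protein described as auxin-responsive, was the brightest of all, with means of 10.96 ± 0.05 in first-actuated, 10.30 ± 0.19 in last-actuated and 10.18 ± 0.17 in ground roots (SD, n = 3 each).

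**Figure D4:**
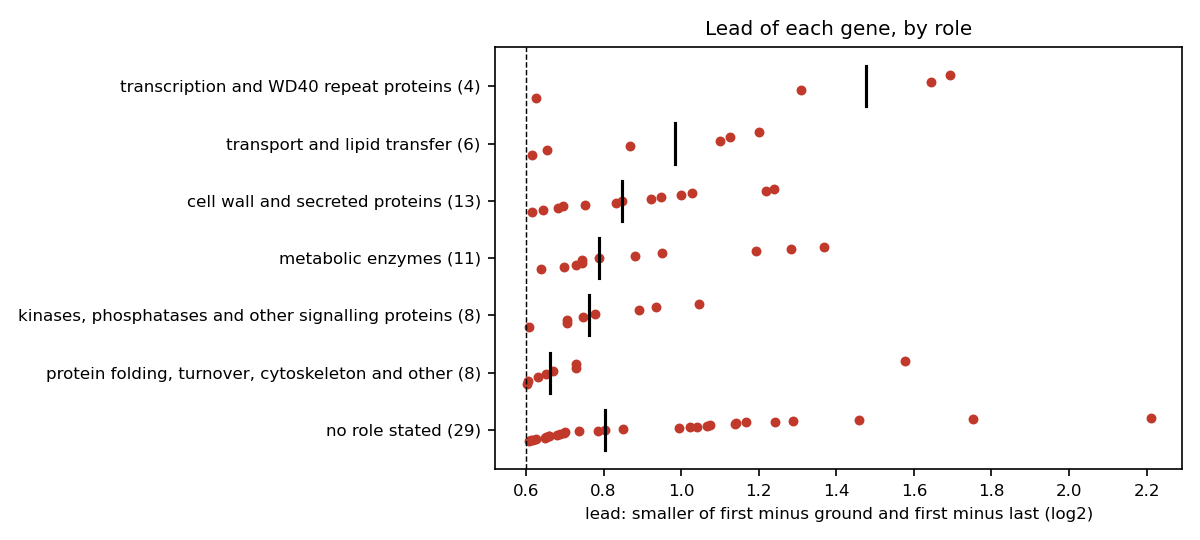
Lead of each of the 79 genes (points, log2) by role, with a black bar at the group median, the number of genes in brackets and a dashed line at the threshold of 0.6. Leads overlap between the groups, with medians from 1.48 for the 4 transcription and WD40 genes to 0.66 for the 8 genes of folding and other roles, and the groups were made after the genes were known.

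The 29 genes without a stated role had leads from 0.61 to 2.21, with a median of 0.80. Besides the 5 given above, those with a lead of at least 1 were AT4G11350 (1.17), AT1G73390 (1.14), AT5G15190 (1.14), AT1G80520 (1.07), AT5G23850 (1.07), AT1G23710 (1.04) and AT1G20070 (1.02). AT3G05770 led by 0.99, AT1G67920 by 0.85, AT1G24600 by 0.80, AT1G16022 by 0.79, AT1G23330 by 0.74, AT4G25670 by 0.70 and AT5G19900 by 0.70. The other 10 were AT1G22885, AT3G47080, AT5G10750, AT3G56500, AT3G17120, AT1G63720, AT3G11690, AT3G20362, AT3G12510 and AT1G38131, with leads of 0.61 to 0.69. Among these, AT3G12510 and AT3G20362 were bright, with first-actuated means of 10.27 and 10.08. Limma called AT1G16022 in neither contrast, and did not call AT5G19900, AT3G47080, AT3G56500, AT3G20362 or AT1G38131 against ground.

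For 3 genes the table held a further probe set that reads the gene, alone or with a neighbour, and that the rule did not keep. AT3G20362 was measured again at 11.69, 12.18 and 11.83 in first-actuated roots, 11.43, 11.34 and 11.19 in last-actuated and 11.64, 11.56 and 11.52 in ground roots. The first-actuated arrays were again the highest, by a gap of 0.05, with a lead of 0.33 in place of 0.62. A probe set shared by AT1G16022 and AT1G16025 had 6.38, 5.58 and 5.94 in first-actuated, 5.26, 4.86 and 4.90 in last-actuated and 5.40, 5.30 and 5.39 in ground roots, a lead of 0.61. It met the value conditions and was not kept only because it is paired with several genes. The probe set shared by AT1G38131 and AT1G38065 did not separate the groups, at 4.32, 4.96 and 4.31 in first-actuated, 4.33, 4.43 and 3.97 in last-actuated and 4.32, 4.32 and 4.098 in ground roots. In their own probe sets the 3 genes had narrow gaps of 0.15 for AT1G16022, 0.04 for AT1G38131 and 0.01 for AT3G20362.

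Some of the genes are neighbours. The 79 lay on all 5 nuclear chromosomes, with 25 on chromosome 1, 6 on 2, 15 on 3, 15 on 4 and 18 on 5, or 31.6%, 7.59%, 19.0%, 19.0% and 22.8% of them, while all probe sets with 1 gene matched in the gene table were 25.9%, 15.5%, 20.4%, 14.9% and 23.0%. There were 5 pairs of these genes with at most 2 protein-coding genes between them. AT4G25670 and AT4G25680 were adjacent, with means of 9.40 and 7.33 in first-actuated, 8.51 and 6.72 in last-actuated and 8.70 and 6.58 in ground roots. The pairs AT1G80520 and AT1G80530, AT5G10750 and AT5G10770, and AT5G57610 and AT5G57625 had 1 gene between them, which was not analysed here. Between AT3G16510 and AT3G16530 lay 2 genes, of which AT3G16520 was measured and was dim in all groups, at 2.63, 2.46 and 2.47 in first-actuated, last-actuated and ground roots.

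The other glutathione S-transferase genes are given as relatives of GSTU20. The rule kept GSTU20 alone among them, so its distance from them follows from the choice. Of 12 others measured, 1 was called higher in first-actuated than in ground roots and 1 lower by limma, with 6 at an unadjusted p under 0.05, and the median difference was -0.14, against 0.0058 over all probe sets with 1 gene. The share of all probe sets called in either direction was 4.89%. GSTU22, which lies near GSTU20 on chromosome 1, had 5.19, 5.22 and 5.05 in first-actuated, 5.83, 6.08 and 6.44 in last-actuated and 5.67, 5.66 and 5.85 in ground roots. It fell in first-actuated roots against ground (-0.58 ± 0.14, limma adjusted p = 0.047) and against last-actuated roots (-0.97 ± 0.14, adjusted p = 0.00292), the opposite direction to GSTU20. The call against ground was lost without any single ground or first-actuated array and without last-actuated replicate 2 (adjusted p = 0.0727 to 0.139), and also after quantile normalization (0.0611) and with every probe set tested (0.0903).

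Between GSTU22 and GSTU20 in locus order, GSTU21 was dim on every array (2.24 to 2.53), and so was GSTU23 on the other side of GSTU22. GSTF3, of the phi class, rose against ground in first-actuated roots (0.76 ± 0.15, limma adjusted p = 0.0161), but was as high in last-actuated roots, with means of 7.35 ± 0.09, 7.33 ± 0.26 and 6.60 ± 0.22 in first-actuated, last-actuated and ground roots (SD, n = 3 each). That call was lost without ground replicate 2 (adjusted p = 0.0642) or 3 (adjusted p = 0.0609). Against last-actuated roots, 2 of the 12 were called higher and 2 lower in first-actuated roots, where 6.73% of all probe sets were called. GSTU26 was lower by this contrast (-0.86 ± 0.16, limma adjusted p = 0.0105). GSTU28 was higher (0.76 ± 0.16, adjusted p = 0.019), a call lost without first-actuated replicate 2 (0.0686) or 3 (0.0595) or last-actuated replicate 1 (0.063) or 2 (0.0775). GSTU18 was also higher (0.74 ± 0.17, adjusted p = 0.0299), a call lost without first-actuated replicate 1 (0.0944) or 3 (0.105) or last-actuated replicate 1 (0.1) or 2 (0.112), with only the compared groups fitted (0.0802) or with every probe set tested (0.0641).

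**Figure D5:**
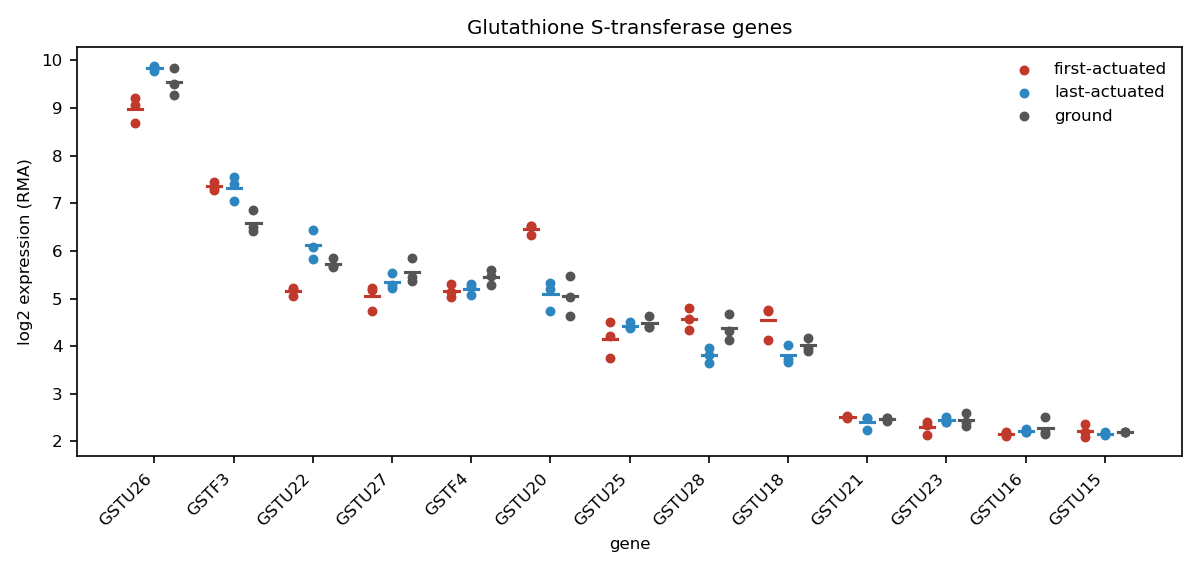
Log2 expression of the 13 glutathione S-transferase genes with a probe set of their own, one point per array and a bar at each group mean, for first-actuated (red), last-actuated (blue) and ground roots (grey). GSTU20 has its red points at 6.33 to 6.53 above all others, whereas those of GSTU22, at 5.05 to 5.22, lie below all others.

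Few genes of the touch and dehydration lists had a probe set of their own, and none was among the 79. Of 22 wound and touch loci 3 were measured. STZ, a zinc finger repressor induced by many stresses, had 10.42, 10.12 and 10.19 in first-actuated roots, 9.54, 9.29 and 9.29 in last-actuated and 9.75, 9.86 and 9.56 in ground roots. It rose against last-actuated roots (0.87 ± 0.12, limma adjusted p = 0.00203), as did CML37, where 3.15% of all probe sets were called higher. STZ was the single call of the 3 against ground (0.52 ± 0.12, limma adjusted p = 0.0338), where 2.25% were called higher. At an unadjusted p under 0.05 were 3 of the 3 against ground and 2 against last-actuated roots. STZ lost the call against ground without ground replicate 1 (adjusted p = 0.0847) or 3 (0.112), first-actuated replicate 1 (0.0871) or 3 (0.0757), or last-actuated replicate 2 (0.0511) or 3 (0.0503), and with only the compared groups fitted (0.0755) or every probe set tested (0.0678). Of 28 abscisic acid and dehydration loci 6 were measured, and KIN1, a cold-induced gene, was the single call, higher, against ground and against last-actuated roots, beside the same 2.25% and 3.15% of all probe sets, with 2 at an unadjusted p under 0.05 in each. Unlike the 79 genes, KIN1 was intermediate in last-actuated roots, with means of 6.50 ± 0.08 in first-actuated, 5.87 ± 0.02 in last-actuated and 4.99 ± 0.24 in ground roots (SD, n = 3 each).

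The threshold cut through a continuous range. Just inside, after Hsp70-2, were AT4G25680, with 7.32, 7.41 and 7.26 in first-actuated, 6.76, 6.63 and 6.78 in last-actuated and 6.54, 6.59 and 6.60 in ground roots, and AT4G08170, with 7.17, 7.29 and 6.94 in first-actuated, 6.46, 6.69 and 6.43 in last-actuated and 6.26, 6.29 and 6.34 in ground roots. Just outside were PYRB, of pyrimidine synthesis, which missed first-actuated minus last-actuated by 0.0003, AT5G19730, which missed the condition on overlap by 0.0009, and AT1G72200, which missed first-actuated minus ground by 0.0011. In all, 64 probe sets missed only the minimum first-actuated level, 39 only the difference from ground, 27 only the difference from last-actuated roots, 28 only the bound on last-actuated minus ground and 8 only the condition on overlap.

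The same conditions were also applied with the other groups set apart, and mirrored to find lower probe sets, before any name was left out. In the mirrored form the minimum level of 5 was set on a group other than the one set apart. That was the last-actuated group for first-actuated roots, and the first-actuated group for last-actuated and ground roots. Among probe sets with 1 gene, 81 were higher and 119 lower in first-actuated roots than in both other groups, against 28 and 45 for last-actuated and 17 and 42 for ground roots. As each group was a single tube, these counts compare tubes.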

How the data were processed

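The submitters' processing notes list RMA, the packages oligo and limma, R 4.0.0 and TAIR10. The deposited values are on the log2 scale, as the authors' RMA summaries per probe set. RMA usually equalizes array distributions, which would hide a shift common to most transcripts. Arrays (Affymetrix AraGene 1.0 ST, 9 in all, 38408 probe sets) were grouped by title. Signal over background is unknown, since no detection call was used here, and the number of arrays limits the precision. Names came from the platform annotation, with symbols from a RefSeq table of TAIR10.1 whose coordinates are not printed. Of the probe sets 16722 had 1 gene (16574 matched in RefSeq), 759 several and 20927 none.

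The rule was applied to group means and array values. The fit was limma 3.58.1 in R 4.3.3 (lmFit, eBayes) on all 9 arrays and 17481 probe sets, called at a Benjamini-Hochberg adjusted p under 0.05. It was also run on simulated data with independent noise and no tube effect, so that run does not cover differences between tubes. Errors marked SE, and those given beside an adjusted p, are limma's. The members and lists were chosen with earlier results of these data known. Every member is named. Array values are given for the 12 largest leads, the 3 smallest, and some members chosen after their values were seen. The rule named other genes only from the lists, up to 4 of smallest p in each, and the probe sets just outside the rule. HCT, AT1G59740, EXPB3, SP1L1, SP1L2, SP1L3, SP1L5, GSTU21, GSTU23 and the marker genes named fall outside it and were chosen after their values were seen. Fixed family lists could be searched by symbol and synonym alone, and only the glutathione S-transferase list held a member, while the peroxidase list is given for relatives of members known by locus. Families of symbol-bearing members were drawn up afterwards, without tests. Promoter motifs were not analysed here.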

Additional observations from a re-analysis of the deposited data

Results flagged for a closer look

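Some probe sets not paired with exactly 1 gene, which the rule did not search, carried the same pattern. Of the 20927 probe sets not paired with a gene here, 136 (0.65%) met the same value conditions, with leads of 0.60 to 2.18 and a median of 0.86, beside 0.484% of those with 1 gene. Of the 759 paired with several genes, 2 met them, among them the probe set shared by AT1G16022 and AT1G16025 that is given above. These probe sets were noted because they lie outside the data the rule searched and were higher in first-actuated than in ground roots. They were not tested.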

How the results depend on the processing

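The rule kept 130 genes with differences of at least 0.5 and 39 with at least 0.8, in place of 79. Its count stayed within 1.5 times of 79 under the other settings tried: another bound on last-actuated minus ground (69 and 86 genes), another minimum level (115 and 53), no condition on overlap (87), arrays centred on their median (71, of which 68 were among the 79) and quantile normalization again (103, of which 78 were). Leaving out single arrays gave 73 to 113 genes, sharing 66 to 76 with the 79, and 40 genes were kept each time. None of 132 recomputed leads of the leading 12 genes moved by more than its replicate SD. Most of these settings left out a single array, which can hardly move a group mean that far, so nothing is read from this. Called probe sets for first-actuated against ground numbered 855, 512 with only the compared groups fitted and 549 to 807 without single arrays. For first-actuated against last-actuated roots they numbered 1177, 1794 when every probe set was tested and 724 to 1119 without single arrays, and for last-actuated against ground 316 and 179 to 333. The replicate block gave 723, 1035 and 247 calls in these comparisons, and with it GSTU22 was not called against ground (limma adjusted p = 0.0614). The labels do not say that replicate numbers pair the samples, so the numbers were not taken as pairs. Same-numbered arrays also did not deviate together (correlations of -0.12 to 0.06 over 9 pairs, against -0.09 to 0.08 for other pairs). Promoter motifs and their alternative window were not run. Dim probe sets limit the size of differences near the array medians.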
